A study of Homo sapiens with 15 samples.

Results

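The comparison set 9 libraries from 3 mutant HT1080 lines against 6 libraries from WT HT1080 cells, which is all 15 libraries of the series. HT1080 is a human fibrosarcoma cell line. Each mutant line carries a missense change in the endogenous gene of a lysine deacetylase (KDAC), an enzyme that removes acetyl groups from lysines. The 6CD1m line has H216A in the first catalytic domain of KDAC6 (gene HDAC6), the 6CD2m line has H611A in its second catalytic domain, and the 8CDm line has H143A in KDAC8 (gene HDAC8). Cells of 6CD1m and 6CD2m were given 1 μM Tubastatin A, an inhibitor used against KDAC6, and cells of 8CDm were given 5 μM PCI-34051, an inhibitor used against KDAC8. The mutant lines were treated for 2 days. The WT cells received either 5 μM PCI-34051 or 1 μM Tubastatin A for 14 days. Every group had 3 replicates, and every library therefore came from cells on an inhibitor. Genotype and time on the inhibitor changed together, so they cannot be told apart in any difference below. Each mutation was represented by 1 line.

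KDAC6 is mainly a cytoplasmic enzyme known for deacetylating tubulin, and KDAC8 is known for deacetylating the cohesin subunit SMC3. Lines derived from one tumour culture can also differ in chromosome copies and in silenced genes, so genes that moved in every mutant line are described apart from genes that stood out in 1 line. The contrast used here was the mean of the 3 mutant group means minus the mean of the 2 WT group means, on the log2 scale. To be counted as shared, a gene had to keep 1 sign in all 6 pairs of a mutant group with a WT group.

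Reads per library counted on genes ranged from 10932455 to 19983710, and the 6CD1m libraries were the shallowest, at 10932455 to 14068244. The first replicates of 6CD1m and of WT cells on PCI-34051 stood apart, with correlations of log2 CPM (counts scaled to library size) to their group mates of 0.951 to 0.97 and 0.962 to 0.973, and the main counts are given with and without each of them. The 8 markers of mesenchymal cells were all expressed and summed to 5294 to 9732 CPM, while epithelial markers summed to at most 2.27 CPM and haematopoietic markers to at most 0.589 CPM. HDAC6 was lower in the mutant lines (log2 fold change -0.61, SE 0.08, adjusted p = 2.7e-05 in the edgeR model), with 12.4 to 14.2 CPM in 6CD1m, 22.9 to 25.1 CPM in 6CD2m, 17.9 to 22.1 CPM in 8CDm and 23.4 to 34.2 CPM in WT cells. HDAC8 was at 12.6 to 19.8 CPM in the mutant lines and 14.7 to 18 CPM in WT cells (log2 fold change 0.09, SE 0.09, adjusted p = 0.46). A missense change leaves the transcript in place, so neither level checks the genotype.

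Of 19535 genes tested, 2023 (10.4%) differed between mutant and WT cells at a false discovery rate of 0.001, of which 655 (3.35%) were higher and 1368 (7.0%) were lower in the mutant lines. Only part of these moved together in the lines. The sign was the same in all 6 pairs for 1172 genes (6.00%), with 368 higher (1.88%) and 804 lower (4.12%), and the other 851 genes changed sign in at least 1 pair. Without the first replicate of 6CD1m 2302 genes differed and 1301 kept 1 sign, and without the first replicate of WT cells on PCI-34051 1968 and 1003 did. For comparison, 3640 of all tested genes (18.6%) kept 1 sign in all 6 pairs whether or not they passed the threshold. The shared higher genes moved further, with a median log2 fold change of 1.19, than the shared lower genes, with a median of -0.59, and 210 higher and 176 lower genes moved by at least 1 on the log2 scale. Protein-coding genes made up 78.5% of the higher and 93.2% of the lower genes, beside 71.5% of all genes tested. For gene groups below that hold mostly protein-coding genes, the shares over all genes are thus a low comparison, above all for lower genes. ZNF384 and EHD1 were just inside the sign rule, with least log2 differences of 4e-05 and -0.00033 between 6CD1m and WT cells on PCI-34051. PTPRG, at -3.6e-05 between 6CD1m and WT cells on Tubastatin A, and NPTXR, at 0.00058 between 8CDm and WT cells on Tubastatin A, were just outside it.

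The balance of higher and lower genes depended on the scaling. It was 368 to 804 with TMM scaling, 489 to 617 with upper-quartile scaling, 637 to 1003 with DESeq2, and 505 to 664 when a curve of each library's ratio against the GC content of transcripts was taken out. The median GC content of the longest transcript was 46.2% in the shared higher genes, 54.9% in the shared lower genes and 48.2% in all genes tested. Across 13946 protein-coding genes, which are not independent replicates, the Spearman correlation of the contrast with GC content was -0.251, and in single pairs it ran from -0.454 to 0.383. With the GC curve taken out, 304 of the 368 higher genes and 473 of the 804 lower genes remained, and counts with this correction are given for the gene groups below where they differ.

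The pairs of groups differed widely in how many genes passed the threshold. Against WT cells on PCI-34051 and on Tubastatin A, 6CD1m had 351 (1.80%) and 155 (0.793%) such genes, 6CD2m had 2859 (14.6%) and 2310 (11.8%), and 8CDm had 2140 (11%) and 1993 (10.2%). The lines share the WT groups in these counts, and the 6CD1m libraries were the shallowest. The lines also differed among themselves at 3953 genes (20.2%), including 535 of the 1172 shared genes.

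A core of 24 genes (0.123%) passed the threshold in each of the 6 pairs with 1 sign, 9 higher and 15 lower in the mutant lines. In all 24 genes the 9 mutant and 6 WT libraries did not overlap, which held for 459 of all tested genes (2.35%). The count was limited by 6CD1m, since 550 genes passed in each of the 4 remaining pairs without it. Without the first replicate of 6CD1m 23 genes passed in all pairs, and without the first replicate of WT cells on PCI-34051 24 genes passed. It fell most when another single library was left out, to 14 without the second 6CD1m replicate. For each of the 24 genes the fold change between mutant and WT cells itself stayed past the threshold without any single library or group. The genes had been chosen for passing in every pair of these same libraries, so this was largely set by the choice and is no separate support.

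**Figure D1:**
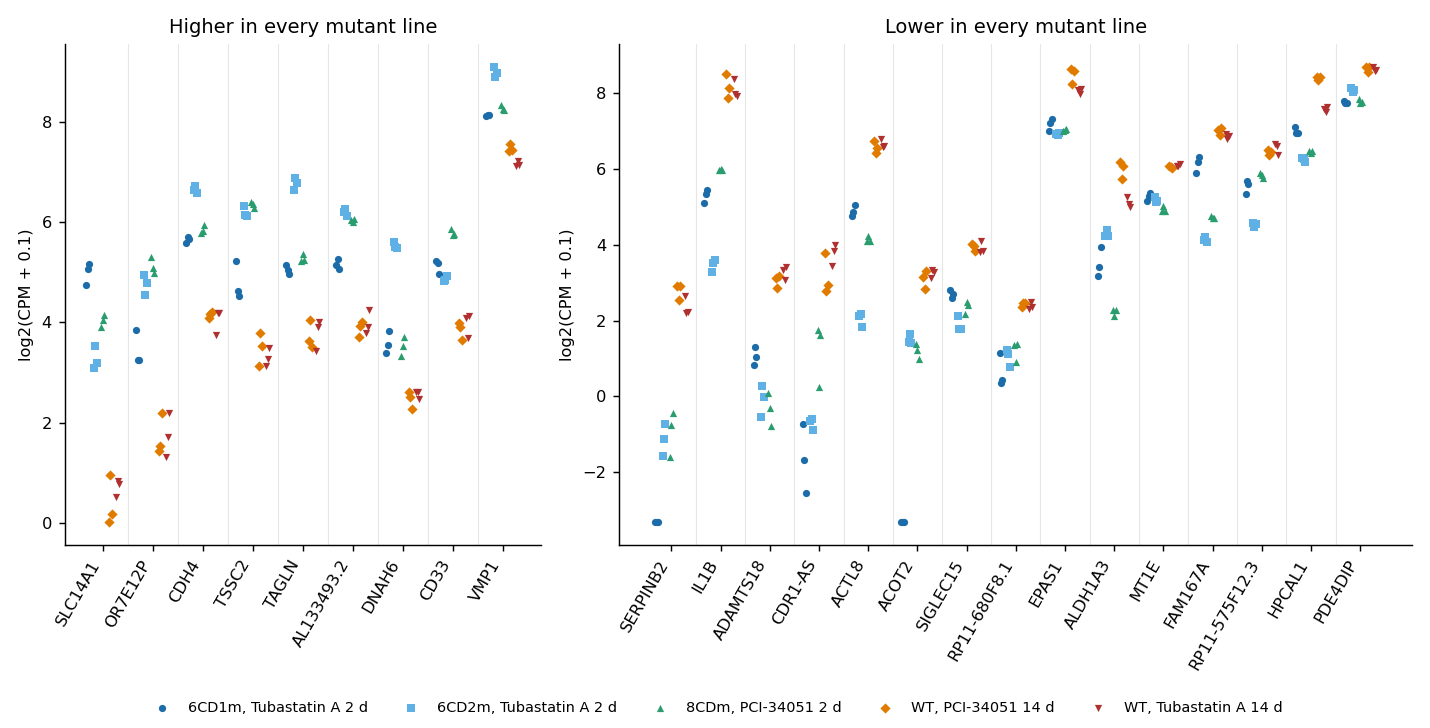
Expression of the 24 genes that passed the threshold in each of the 6 pairs, as log2(CPM + 0.1) on the vertical axis, with 1 point for each of the 15 libraries and colours and marker shapes for the 5 groups. The mutant libraries (blue and green) lie above the WT libraries (orange and red) for the 9 genes in the left panel and below them for the 15 genes in the right panel, and SERPINB2 and ACOT2 are at 0 counts in the 3 libraries of 6CD1m.

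SLC14A1, which encodes a urea transporter, came first among the higher genes, which were ordered by the smallest of their 6 pair differences. It was at 26.9, 33.3 and 35.7 CPM in 6CD1m, 8.35, 11.4 and 9.07 CPM in 6CD2m, 14.8, 16.4 and 17.6 CPM in 8CDm, 0.907, 1.83 and 1.03 CPM in WT cells on PCI-34051, and 1.33, 1.69 and 1.62 CPM in WT cells on Tubastatin A. Every mutant library was thus above every WT library, with 6CD1m highest. The difference was 12.3-fold (log2 fold change 3.62, SE 0.15, adjusted p = 2.1e-10 by edgeR).

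Genes of cell adhesion and the cytoskeleton were among the higher genes. CDH4, a classical cadherin of cell-cell junctions, was at 50.1 ± 2.16 CPM in 6CD1m, 100.3 ± 4.7 CPM in 6CD2m, 57.6 ± 3.0 CPM in 8CDm, 17.7 ± 0.791 CPM in WT cells on PCI-34051 and 16.5 ± 2.72 CPM in WT cells on Tubastatin A (SD, n = 3 each), a 3.88-fold difference (adjusted p = 7.8e-11 by edgeR). TAGLN, which encodes the actin-binding protein transgelin, was at 31.0 to 35.4 CPM in 6CD1m, 109 ± 8.53 CPM (SD, n = 3) in 6CD2m and 37.5 to 40.8 CPM in 8CDm, above 10.7 to 16.4 CPM in WT cells. 6CD2m stood above the other lines for both genes. DNAH6, a heavy chain of axonemal dynein, was likewise at 44.9 to 48.2 CPM in 6CD2m, beside 9.91 to 14.0 CPM in the other mutant lines and 4.7 to 6.03 CPM in WT cells.

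CD33, a sialic acid-binding receptor best known from myeloid cells, was highest in 8CDm, at 53.6 to 58.3 CPM, beside 28.2 to 37.5 CPM in the other mutant lines and 12.4 to 17.3 CPM in WT cells. VMP1, a membrane protein needed for autophagosome formation, was the most abundant of the higher genes, at 278, 283 and 282 CPM in 6CD1m, 549, 478 and 502 CPM in 6CD2m, 323, 307 and 301 CPM in 8CDm, 171, 189 and 174 CPM in WT cells on PCI-34051, and 139, 149.6 and 141 CPM in WT cells on Tubastatin A. Its 2.22-fold difference (adjusted p = 6.8e-10 by edgeR) was the smallest among the higher genes. The lincRNA AL133493.2 was at 33.4 to 76.3 CPM in the mutant lines and 13.0 to 18.8 CPM in WT cells.

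The remaining higher genes were the pseudogenes TSSC2 and OR7E12P, at 23 to 84.8 CPM and 9.34 to 39.4 CPM in the mutant lines and 8.62 to 13.7 CPM and 2.38 to 4.45 CPM in WT cells. The annotation of GENCODE 29 (GRCh38) places OR7E12P at chromosome 11, 3390780 to 3391752, inside TSSC2 at 3380961 to 3408978. Reads could be divided between them and between near-identical copies, so they are uncertain as 2 separate results.

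SERPINB2 and IL1B led the lower genes. IL1B, the precursor of the inflammatory cytokine interleukin-1 beta, was at 34.5, 40.8 and 43.8 CPM in 6CD1m, 9.71, 11.3 and 12.1 CPM in 6CD2m, 62.4, 64.1 and 62.8 CPM in 8CDm, 362, 235 and 285 CPM in WT cells on PCI-34051, and 332, 251 and 245 CPM in WT cells on Tubastatin A. Every mutant library was below every WT library, and 6CD2m was lowest. The difference was 9.41-fold (log2 fold change -3.23, SE 0.10, adjusted p = 9.4e-12 by edgeR).

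SERPINB2 encodes plasminogen activator inhibitor type 2. It had 0 counts in the 3 libraries of 6CD1m, 4, 7 and 9 counts in 6CD2m, 4, 9 and 12 counts in 8CDm, 140, 90 and 116 counts in WT cells on PCI-34051, and 112, 69 and 80 counts in WT cells on Tubastatin A. Set against a floor of 3 counts per library, 6CD1m was at least 30.7-fold lower than WT cells on PCI-34051 and at least 22.7-fold lower than WT cells on Tubastatin A. ACOT2, a mitochondrial acyl-CoA thioesterase with close paralogs, also had 0 counts in the 6CD1m libraries, which put it at least 38.2-fold and 42.1-fold lower than in the WT groups. It was at 1.88 to 3.04 CPM in 6CD2m and 8CDm and 7.02 to 10.0 CPM in WT cells. These floors cover counting error only.

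ACTL8, an actin-like protein known mainly from testis and tumours, was at 26.9 to 33.3 CPM in 6CD1m, 3.45 to 4.41 CPM in 6CD2m and 17.2 to 18.6 CPM in 8CDm, below 86.7 to 111 CPM in WT cells (7.66-fold, adjusted p = 1.2e-12 by edgeR). ADAMTS18, a secreted metalloprotease, was at 0.483 to 2.39 CPM in the mutant lines and 7.21 to 10.6 CPM in WT cells. ALDH1A3, which makes retinoic acid from retinaldehyde, was lowest in 8CDm, at 4.28 to 4.78 CPM, and differed between the WT groups too, at 53.2 to 73.3 CPM on PCI-34051 and 31.8 to 38.6 CPM on Tubastatin A.

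EPAS1, which encodes the hypoxia-inducible transcription factor HIF-2α, differed little among the mutant lines. It was at 129.7, 149 and 161 CPM in 6CD1m, 122, 120 and 125 CPM in 6CD2m, 129, 130.1 and 134 CPM in 8CDm, 402, 304 and 384 CPM in WT cells on PCI-34051, and 271, 254 and 279 CPM in WT cells on Tubastatin A. The mutant lines were 2.35-fold lower (adjusted p = 4.6e-09 by edgeR), and the test for a difference among them gave an adjusted p of 0.12. Of the 24 genes, 5 did not pass the threshold for a difference among the lines: EPAS1, SIGLEC15, MT1E, PDE4DIP and the antisense RNA RP11-680F8.1. SIGLEC15, a sialic acid-binding lectin, was at 3.34 to 6.9 CPM in the mutant lines and 13.9 to 17.1 CPM in WT cells, and RP11-680F8.1 at 1.19 to 2.52 and 4.86 to 5.51 CPM.

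The other lower genes were the antisense RNA gene CDR1-AS, at 0.0697 to 3.25 CPM in the mutant lines and 6.83 to 15.8 CPM in WT cells, and FAM167A, at 16.7 to 79.7 and 111 to 136 CPM. Whether the counting used the strand of the reads is not given in the sources used here, so antisense RNAs cannot be told apart from genes on the opposite strand, and the files do not tell circular from linear CDR1-AS. RP11-575F12.3, the calcium sensor HPCAL1 and the centrosome protein PDE4DIP, which lay beyond the first 12 lower genes and are named because they complete the 24, had log2 fold changes of -1.19, -1.42 and -0.77. PDE4DIP has near-identical copies on chromosome 1 and is uncertain for that reason.

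**Figure D2:**
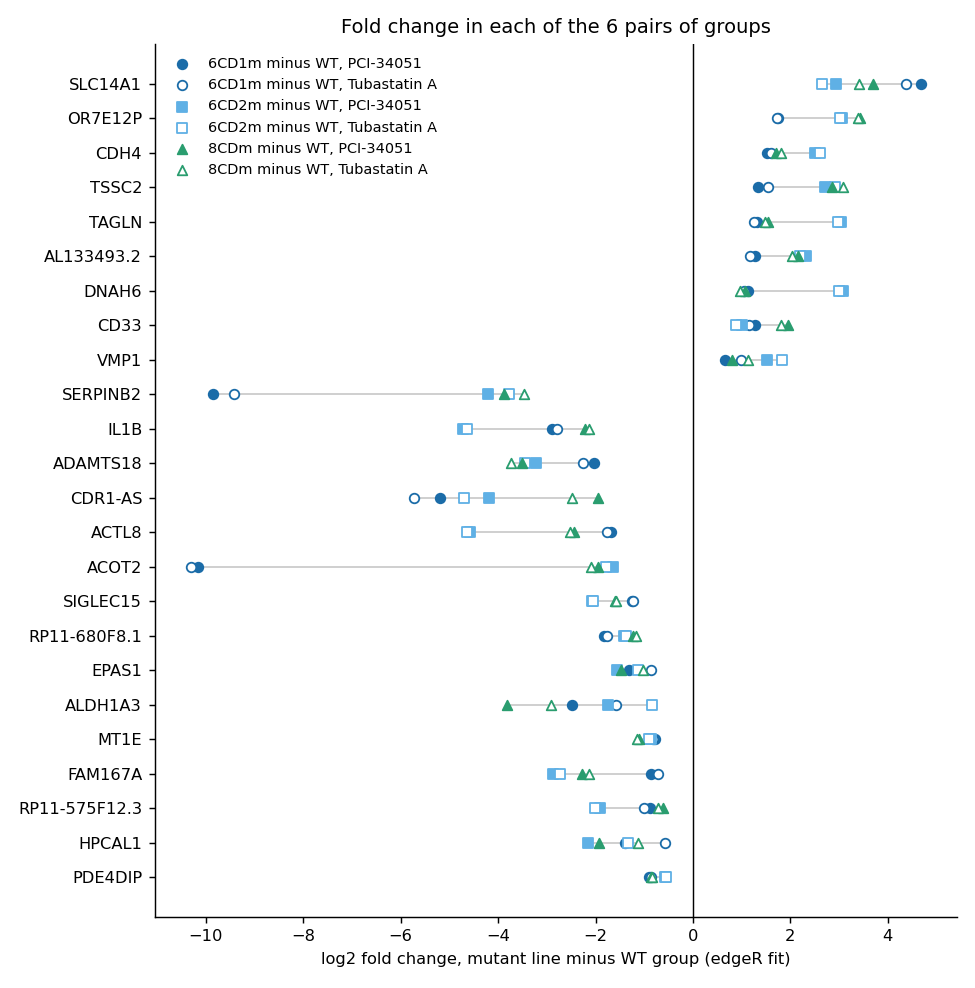
Log2 fold change from the edgeR fit (horizontal axis) of the 24 genes in each of the 6 pairs of a mutant group with a WT group; filled markers are against WT cells on PCI-34051 and open markers against WT cells on Tubastatin A. All points of a gene lie on 1 side of 0, and the values for SERPINB2 and ACOT2 in 6CD1m rest on 0 counts and show only the direction.

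Metallothioneins, small proteins that bind zinc and copper and whose genes respond to metal through metal response elements, were lower for part of their list. Of 7 measured genes of metallothioneins and zinc handling, 3 were lower with 1 sign in all pairs (42.9%, beside 4.12% of all genes) and 0 were higher, and the median log2 fold change of the list was -0.20, beside -0.01 over all genes. MT1E was at 35.9, 39.3 and 41.0 CPM in 6CD1m, 38.7, 34.8 and 35.5 CPM in 6CD2m, 29.8, 32.6 and 29.7 CPM in 8CDm, 67.4, 66.2 and 65.6 CPM in WT cells on PCI-34051, and 67.7, 67.2 and 70.3 CPM in WT cells on Tubastatin A, so that it was 1.92-fold lower with no overlap (adjusted p = 6.5e-09 by edgeR). MT2A was 2.31-fold lower (adjusted p = 1.1e-07), but its 6CD1m libraries, at 137 to 157 CPM, overlapped the WT libraries at 152 to 201 CPM, while 6CD2m and 8CDm were at 39.1 to 82.7 CPM. MT1X was 1.84-fold lower (adjusted p = 1.8e-05), at 5.62 to 15.7 CPM beside 13.4 to 18.5 CPM, and differed least in 6CD2m, with log2 fold changes of -0.30 and -0.27 that did not pass the threshold. The lines that were low thus differed between MT2A and MT1X. Each alternative fit, and each fit without 1 library or 1 group, called 3 members lower, except that 4 were lower with the GC curve taken out. MTF1, the zinc-sensing factor that binds metal response elements, was not called, with a log2 fold change of 0.16 (adjusted p = 0.038). Metallothionein transcripts are close in sequence, so reads could be divided among them.

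The 250 bases before the transcription start of MT2A (chr16:56608334-56608583) and MT1X (chr16:56682220-56682469) are shown because both genes were called lower in the contrast and share a known response element. Sequences are from RefSeq on GRCh38.p14, on the plus strand, 5′ to 3′, with matches to the core letters TGCGCNC or TGCACNC on either strand in capitals.
MT2A: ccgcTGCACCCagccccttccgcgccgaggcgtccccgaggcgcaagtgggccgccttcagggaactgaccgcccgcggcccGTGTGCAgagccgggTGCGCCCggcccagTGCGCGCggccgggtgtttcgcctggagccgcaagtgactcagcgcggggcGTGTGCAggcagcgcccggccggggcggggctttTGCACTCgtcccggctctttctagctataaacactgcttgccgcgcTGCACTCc
MT1X: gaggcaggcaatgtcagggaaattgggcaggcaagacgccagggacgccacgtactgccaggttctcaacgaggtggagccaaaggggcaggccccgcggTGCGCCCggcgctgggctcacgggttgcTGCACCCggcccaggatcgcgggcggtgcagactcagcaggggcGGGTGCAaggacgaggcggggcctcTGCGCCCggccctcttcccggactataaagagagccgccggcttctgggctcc
The stretch of MT2A holds 7 matches and that of MT1X 4. Of 35116 RefSeq promoters, 24.8% hold at least 1 match in the same 250 bases and 0.37% hold at least 4. MT1E was not matched in the table of promoters.

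Targets of NRF2, the transcription factor that induces detoxifying and antioxidant enzymes, were lower too. Of 21 measured NRF2 targets, 8 were lower (38.1%) and 0 were higher, and 13 had the lower sign in all 6 pairs, with a list median of -0.51. FTL, the light chain of the iron store ferritin, was at 591, 556 and 614 CPM in 6CD1m, 518, 429 and 505 CPM in 6CD2m, 378, 364 and 342 CPM in 8CDm, 1358, 1146 and 1314 CPM in WT cells on PCI-34051, and 762, 803 and 940 CPM in WT cells on Tubastatin A. It was 2.2-fold lower (adjusted p = 9.9e-09 by edgeR) with no overlap, although the WT groups also differed from each other. AKR1C1, an aldo-keto reductase, was at 0.111 to 2.72 CPM in the mutant lines and 3.09 to 5.2 CPM in WT cells (log2 fold change -2.65, SE 0.27, adjusted p = 3.5e-06), but has near-identical paralogs.

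NQO1, a quinone reductase, was 2.42-fold lower (adjusted p = 1.2e-06 by edgeR), at 33.5 to 95.0 CPM and 87.1 to 149 CPM, with 6CD1m overlapping WT cells. Other called members included HMOX1, OSGIN1, TKT and TALDO1, with log2 fold changes of -1.20, -0.85, -0.45 and -0.51. Between 6 and 12 NRF2 targets were lower in the alternative fits, and 9 were lower with the GC curve taken out. The antioxidant response element core TGACNNNGC was searched on both strands in the 250 bases before the start. It was in 0 of the 6 called members matched in the RefSeq table and in 10.9% of all promoters. Sequence further from the start was not searched, so the 0 of 6 does not show whether these genes carry the element.

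Regulators of invasion were lower in part. Of 18 measured proteases and inhibitors of invasion, 7 were lower (38.9%) and 0 were higher, but the list median was -0.18, the same with SERPINB2 at its bound. MMP1, the interstitial collagenase, was at 0.505, 0.491 and 0.837 CPM in 6CD1m, 15.7, 24.5 and 22.0 CPM in 6CD2m, 6.15, 6.66 and 7.89 CPM in 8CDm, 81.4, 53 and 67.5 CPM in WT cells on PCI-34051, and 54.9, 34.8 and 36.2 CPM in WT cells on Tubastatin A. It was 11.9-fold lower with no overlap (adjusted p = 3.1e-10 by edgeR), and lowest in 6CD1m. TIMP1, an inhibitor of such proteases, was 1.67-fold lower at 29.6 to 50.5 and 59.1 to 75.2 CPM. MMP16, PLAT and PLAUR had log2 fold changes of -0.85, -1.03 and -0.33, and 5 members remained called with the GC curve taken out. Leaving out any single library left 4 to 6 members lower, with 4 without replicate 2 or 3 of 6CD1m, replicate 3 of 6CD2m, replicate 1 of 8CDm, replicate 1 of WT cells on PCI-34051, or any replicate of WT cells on Tubastatin A.

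The 250 bases before the start of SERPINB2 (chr18:63887455-63887704, plus strand) and PLAUR (chr19:43670170-43670419, minus strand) are shown because these are the called members of this list in which the RefSeq table holds a match to TGANTCA, the site bound by AP-1 factors such as FOSL1. Sequences run 5′ to 3′ on the strand of the gene, from RefSeq on GRCh38.p14, with the match in capitals. The site reads as TGANTCA on both strands.
SERPINB2: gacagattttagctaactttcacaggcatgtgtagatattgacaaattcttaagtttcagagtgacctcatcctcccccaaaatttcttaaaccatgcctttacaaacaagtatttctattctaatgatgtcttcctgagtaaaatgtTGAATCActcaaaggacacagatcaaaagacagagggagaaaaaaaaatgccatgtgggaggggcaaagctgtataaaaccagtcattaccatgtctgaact
PLAUR: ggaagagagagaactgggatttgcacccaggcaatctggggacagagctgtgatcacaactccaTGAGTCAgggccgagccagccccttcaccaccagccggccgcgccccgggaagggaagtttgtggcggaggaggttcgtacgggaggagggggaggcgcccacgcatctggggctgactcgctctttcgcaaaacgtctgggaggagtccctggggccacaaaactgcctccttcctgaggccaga
Of the called members, 3 were matched in the table, TIMP1 being the other, and 6.57% of all promoters hold the site. FOSL1 itself was called lower (log2 fold change -0.67, SE 0.07, adjusted p = 6.7e-06 by edgeR), at 134 to 158 CPM in 6CD2m and 102 to 118 CPM in 8CDm beside 205 to 283 CPM in WT cells. In 6CD1m FOSL1 was at 219 to 259 CPM, with log2 fold changes of -0.09 and -0.03 (adjusted p = 0.72 and 0.87 by edgeR). SERPINB2 had 0 counts and MMP1 was lowest in that line. Any part of FOSL1 or other AP-1 factors in these differences was not tested.

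Components of the TGF-beta pathway, which governs matrix production in connective tissue cells, were lower in part. Of 20 measured members of the TGF-beta pathway, 6 were lower (30.0%) and 0 higher, with a list median of -0.44, and 8 were lower with the GC curve taken out. LTBP1, which tethers latent TGF-beta in the matrix, was at 105 to 168 CPM in the mutant lines and 197 to 323 CPM in WT cells, a 1.79-fold difference (adjusted p = 4.1e-05 by edgeR). The receptor TGFBR2 was at 199, 248 and 294 CPM in 6CD1m, 207, 231 and 221 CPM in 6CD2m, 248 ± 10.3 CPM (SD, n = 3) in 8CDm, 468, 319.8 and 359 CPM in WT cells on PCI-34051, and 471, 378 and 384 CPM in WT cells on Tubastatin A. Neither gene overlapped between mutant and WT libraries, and neither passed the threshold for a difference among the lines, with adjusted p of 0.35 and 0.51. The target gene ID1 (1.98-fold lower) and the coreceptor TGFBR3 (2.08-fold lower) were also called, as were SMAD3 and SMAD7 with log2 fold changes of -0.90 and -0.78. Leaving out all 6CD2m libraries left 3 members lower, and leaving out all 6CD1m libraries gave 10 lower and 3 higher. Of all genes 1.59% were lower without 6CD2m, and 8.74% were lower and 9.36% higher without 6CD1m.

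**Figure D3:**
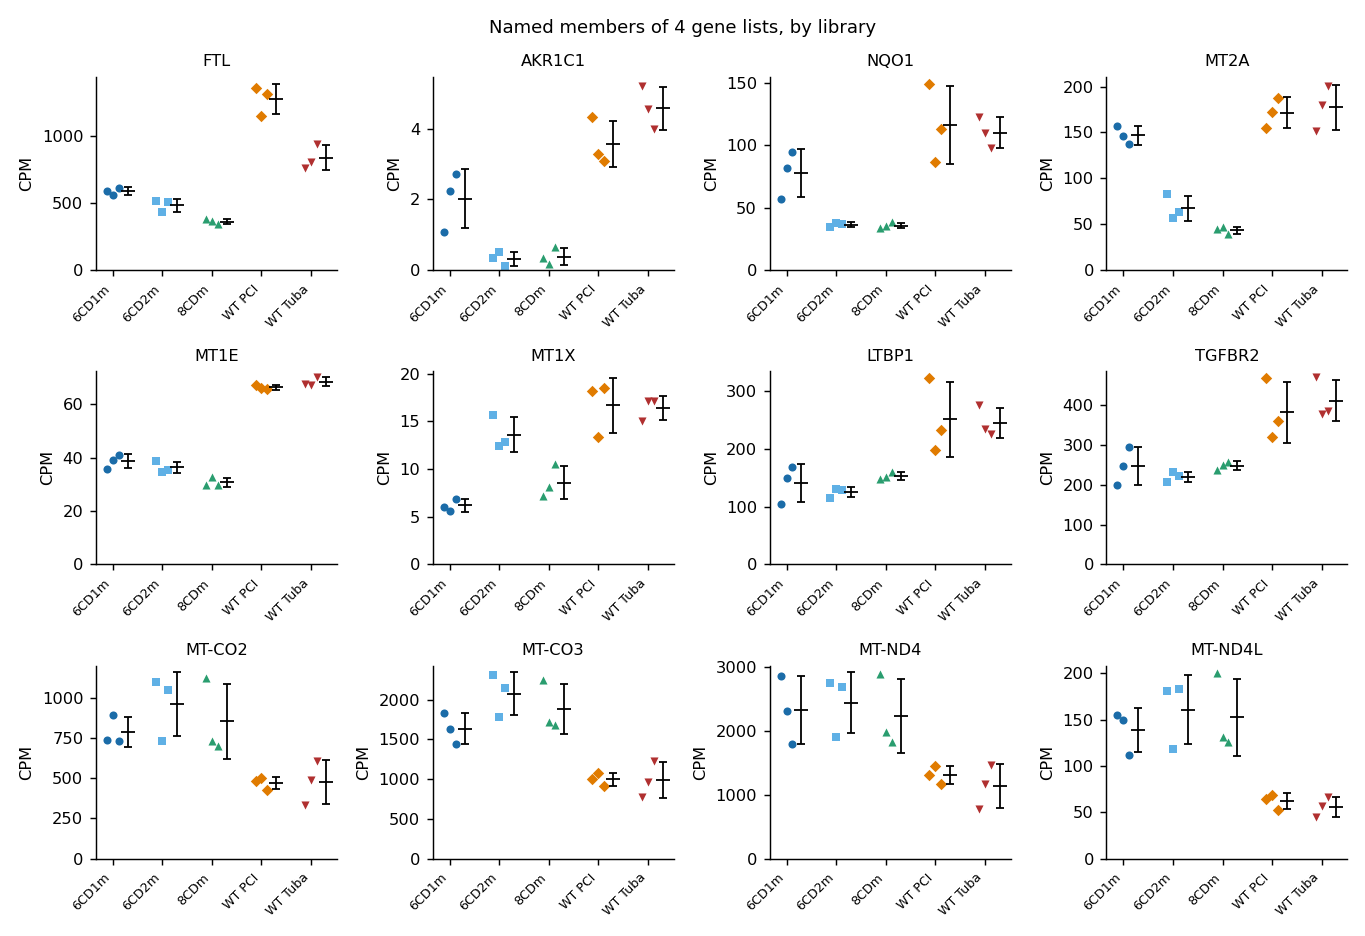
CPM (vertical axes, from 0) of 12 named members of the NRF2, metallothionein, TGF-beta and mitochondrial genome lists in each of the 15 libraries, by group, with the group mean and SD (n = 3) in black beside the points. MT1E, LTBP1, TGFBR2, FTL and AKR1C1 are lower and the mitochondrial genes MT-CO2, MT-CO3, MT-ND4 and MT-ND4L are higher in the mutant lines with no overlap, and MT2A, MT1X and NQO1 overlap in 1 mutant line.

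Transcripts of the mitochondrial genome, which encodes subunits of the respiratory chain and the mitochondrial rRNAs, moved the opposite way. Of 15 measured genes, 8 were higher (53.3%, beside 1.88% of all genes) and 0 lower, all 15 had a fold change above 0, and the list median was 0.87. MT-CO3, a subunit of cytochrome c oxidase, was at 1827, 1634 and 1444 CPM in 6CD1m, 2307, 1777 and 2146 CPM in 6CD2m, 2251, 1722 and 1675 CPM in 8CDm, 997, 1079 and 916 CPM in WT cells on PCI-34051, and 771, 969.6 and 1227 CPM in WT cells on Tubastatin A. It was 1.87-fold higher with no overlap (adjusted p = 1.7e-05 by edgeR), and MT-ND4L, MT-ND4 and MT-CO2 were 2.55-, 1.91- and 1.83-fold higher. The genes are cut from common precursors and are not independent of each other. Summed over the genome they reached 19541 to 28179 CPM in the mutant libraries and 11671 to 16609 CPM in the WT libraries, and the part of RNA quality or depletion of rRNA in this was not tested. With the GC curve taken out 6 genes were higher. From 4 to 11 genes were higher when a single library was left out (4 without replicate 3 of WT cells on PCI-34051 or replicate 2 of WT cells on Tubastatin A), 4 when all 6CD2m or all WT PCI-34051 libraries were left out and 3 without the WT Tubastatin A libraries.

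Nuclear genes of the respiratory chain did not rise with them. Of 31 measured, 4 were lower (12.9%, beside 4.12% of all genes) and 0 higher, with a list median of -0.20. The lower genes were COX5B, UQCRC1, NDUFS3 and NDUFA2, with log2 fold changes from -0.55 to -0.43. With the GC curve taken out these 4 missed the threshold (adjusted p from 0.0018 to 0.0087 by edgeR). The list then had 4 other members called lower. Of 36 cytosolic ribosomal protein genes 5 were lower (13.9%) and 0 higher, and 3 were lower with the GC curve taken out. Of 22 glycolysis genes 3 were lower (13.6%) and 0 higher, and 2 were lower with the GC curve taken out. Those 3 were PFKM, GAPDH and PFKFB4, with log2 fold changes of -0.37, -0.46 and -0.37. With the GC curve taken out 3.4% of all genes were lower. RPS9, a protein of the small ribosomal subunit, was at 411 to 517 CPM in the mutant lines and 586 to 666 CPM in WT cells with no overlap.

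Lysosomal and lipid genes were lower in part, with less stability. Of 27 lysosome and autophagy genes, 6 were lower (22.2%), among them the proteases CTSB and CTSA, the sialidase NEU1 and the cholesterol transporter NPC1. With the GC curve taken out 3 were lower, and CTSB and CTSA no longer passed (adjusted p = 0.0042 and 0.099 by edgeR). Of 23 genes of cholesterol synthesis and uptake, 5 were lower (21.7%), including the master regulator SREBF2 (log2 fold change -0.36), and the enzymes MVD (-0.87), EBP (-0.62) and LSS (-0.47). With the GC curve taken out SREBF2 no longer passed (adjusted p = 0.0023 by edgeR), and the count of 5 fell to 3. It was 0 without the 6CD2m libraries and 0 without the WT Tubastatin A libraries. Without the 6CD2m libraries the share of lower genes also fell over all genes, from 4.12% to 1.59%. Of 12 fatty acid synthesis genes 1 was lower, the acetyl-CoA synthetase ACSS2 (log2 fold change -0.73, adjusted p = 4.7e-07 by edgeR, no overlap).

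Inflammatory and stress genes gave the following counts, to be read beside 4.12% lower and 1.88% higher of all genes. Of 15 measured NF-kappaB cytokines and chemokines, 3 were lower, IL1B, CXCL3 and IL11, and 0 higher. IL11 was at 8.45 to 12.6 CPM in the mutant lines and 14.3 to 17.7 CPM in WT cells. Of 22 genes of the ATF4 stress response 3 were lower (CEBPB, STC2 and ATF5), and of 16 genes of the unfolded protein response 1 was lower (6.25%; CRELD2, at 6.32 to 14.4 and 16.9 to 18.8 CPM). Among 18 immediate early genes KLF2, DUSP1 and IER3 were lower. Of the smaller lists, 2 of 7 aryl hydrocarbon receptor targets, 2 of 11 genes of serum deprivation and quiescence (KLF9 and IRS2) and 1 of 12 hypoxia targets (VEGFA) were lower. In the other direction, 1 of 27 interferon-stimulated genes (DDX58, log2 fold change 0.64) and 1 of 21 p53 targets (DDB2, 0.39) were higher, which is 3.7% and 4.76%. With the GC curve taken out 4 NF-kappaB genes, 2 ATF4 response genes, 2 immediate early genes and 1 interferon-stimulated gene were lower. In the same fit 2 interferon-stimulated genes, 2 p53 targets and 1 ATF4 response gene were higher.

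Genes of adhesion and matrix moved both ways. Of 22 integrin and focal adhesion genes 4 were lower (18.2%, beside 4.12% of all genes), ITGA11, ITGB5, ITGB3 and TLN1, and 0 higher. ITGA11, a collagen receptor subunit, was at 49.1 to 51.7 CPM in 6CD1m, 36.5 to 41.6 CPM in 6CD2m, 16.5 to 18.1 CPM in 8CDm, 158 to 171 CPM in WT cells on PCI-34051 and 57.1 to 71.5 CPM in WT cells on Tubastatin A. Its 3.22-fold difference thus came in larger part from 1 WT group. COL6A3, a chain of collagen VI, and COL4A5 were the 2 lower genes of 18 collagens (11.1%). Among 23 matrix genes TGFBI and NID1 were higher (8.7%, beside 1.88% of all genes) and BGN and NID2 lower (8.7%). Among 23 genes of the actin cytoskeleton TAGLN and TPM1 were higher (8.7%) and 0 lower. With the GC curve taken out 1 integrin or focal adhesion gene and 1 collagen gene were higher too, and 3 matrix genes were higher and 1 lower. TLN1 and TPM1 then no longer passed (adjusted p = 0.063 and 0.0012 by edgeR). The counts of 4 lower integrin or focal adhesion genes and 2 higher actin genes stayed through other members.

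**Figure D4:**
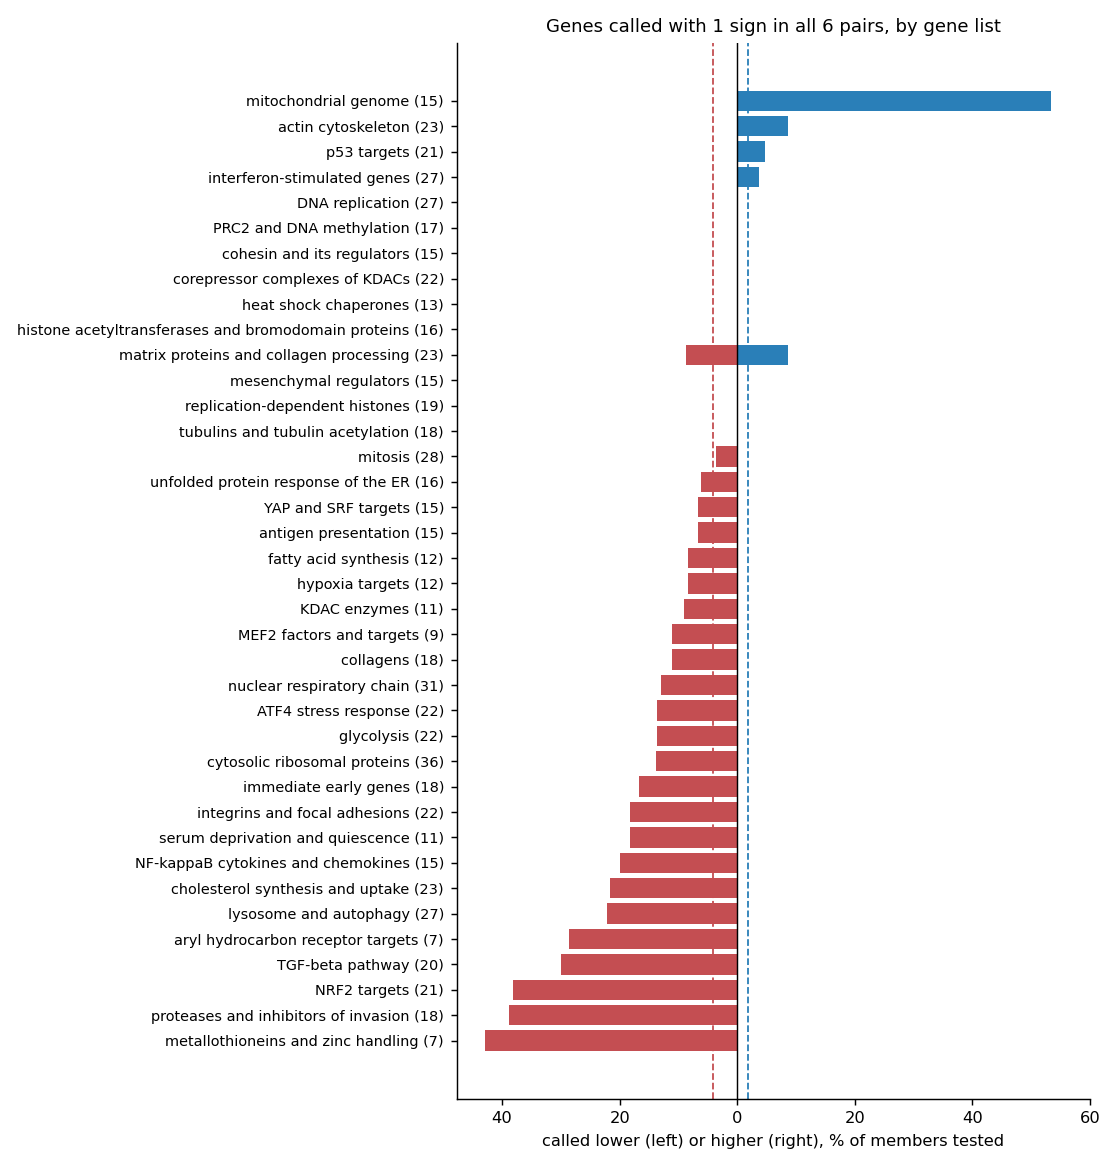
Share of the tested members of each of 38 gene lists that were called with 1 sign in all 6 pairs, lower in mutant cells to the left in red and higher to the right in blue (horizontal axis, % of members tested; number tested in brackets). The dashed lines mark the shares among all tested genes, 4.12% lower and 1.88% higher, and the longest bars are the mitochondrial genome (higher) and metallothioneins, proteases and inhibitors of invasion and NRF2 targets (lower).

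The pathways closest to the enzymes gave few shared calls, but over all genes the share was only 6.00%. In lists of this size 0 calls are near that share. Of 18 genes of tubulins and tubulin acetylation, 15 of cohesin and its regulators, 22 of corepressor complexes, 16 of histone acetyltransferases and bromodomain proteins and 17 of PRC2 and DNA methylation, 0 were called with 1 sign in all pairs by edgeR. In the same order, 3, 1, 1, 1 and 2 members were called in the contrast but changed sign in at least 1 pair, beside 851 of all genes. At an unadjusted p under 0.05 in the contrast the counts were 10, 5, 3, 2 and 9, beside 7948 of all 19535 genes (40.7%). The members with the smallest p were TUBB3 (log2 fold change -0.93), CDCA5 (-0.49), CHD3 (-0.28), EP300 (-0.35) and PHF19 (-0.45), which each changed sign in at least 1 pair. Of 11 KDAC genes, HDAC6 alone was called. Heat shock chaperones, DNA replication genes, replication-dependent histones and mesenchymal regulators also had 0 shared calls, with 4 of 13, 14 of 27, 16 of 19 and 9 of 15 members at an unadjusted p under 0.05. With the GC curve taken out 2 mesenchymal regulators were lower. The list names stand for measured transcripts only, and acetylation was not measured in these libraries.

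Zinc finger genes, a set noticed in the results and not listed beforehand, made up 50 of the 368 shared higher genes. Many encode DNA-binding proteins that recruit silencing complexes to repeats, and 221 of the tested genes lie on chromosome 19. The set was taken by name and also holds genes of other kinds, such as ZFP36L1 and ZFP36L2, which encode RNA-binding proteins. Of 489 protein-coding genes named ZNF, ZFP, ZSCAN or ZKSCAN, 50 were higher (10.2%) and 10 lower (2.04%). On chromosome 19, 38 of 221 were higher (17.2%) and 3 lower (1.36%). Of the other 777 protein-coding genes of that chromosome 20 were higher (2.57%) and 69 lower (8.88%). The 38 include genes barely detected outside 6CD2m. ZNF844, for one, was at 3.9 to 4.97 CPM in 6CD2m. Elsewhere it was at most 0.456 CPM in the mutant lines and 0.116 CPM in WT cells. Such a gene could pass the filter on low counts only through the line where it was high, so it could hardly be called lower. With the GC curve taken out 33 of the 221 were higher and 0 lower. Of the other 777 genes 28 were then higher (3.6%) and 27 lower (3.47%), and of the 489 named genes 46 were higher and 2 lower. Over all genes these shares were 2.59% higher and 3.4% lower.

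The lines contributed unequally to this. The median log2 fold change of the 221 genes was 0.05 and 0.03 in the pairs of 6CD1m. It was 0.53 and 0.47 in those of 6CD2m and 0.51 and 0.42 in those of 8CDm. Without the 6CD2m libraries 6 genes were higher (2.71%), beside 0.875% of all genes. ZNF790 was at 0.589, 0.632 and 1.05 CPM in 6CD1m, 4.44, 4.91 and 5.34 CPM in 6CD2m, 0.285, 0.217 and 0.537 CPM in 8CDm and 0.0632 to 0.166 CPM in WT cells. ZNF528 was expressed in all groups, at 17.1, 19.9 and 19.3 CPM in 6CD1m, 33.9, 28 and 29.9 CPM in 6CD2m, 33.9, 26.7 and 24.8 CPM in 8CDm and 8.62 to 11.6 CPM in WT cells (2.61-fold, adjusted p = 3.8e-08 by edgeR). ZNF569 was at 2.02 to 9.79 CPM in the mutant lines and 0.451 to 1.36 CPM in WT cells. In ZNF528 and ZNF569 the mutant and WT libraries did not overlap. ZNF790 did not overlap either, but it was barely detected in 8CDm and WT cells. Its lowest 8CDm library, at 0.217 CPM, was close to its highest WT library, at 0.166 CPM. The 8CDm pairs of ZNF790 did not pass the threshold (adjusted p = 0.024 and 0.046 by edgeR). All 3 genes were picked after their values were seen, and reads could be divided among similar zinc finger genes.

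**Figure D5:**
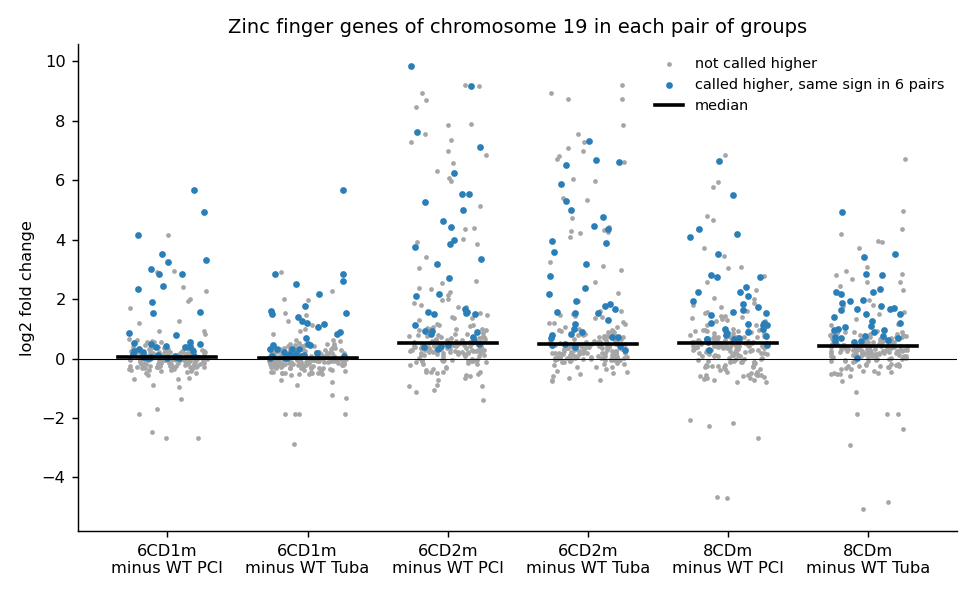
Log2 fold change (vertical axis) of the 221 tested zinc finger genes of chromosome 19 in each of the 6 pairs of groups, with 1 point per gene, blue for the 38 genes called higher and a black bar for the median. The medians are close to 0 for 6CD1m and between 0.42 and 0.53 for 6CD2m and 8CDm.

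On chromosome 18, 29 of 191 protein-coding genes (15.2%) were lower and 2 were higher, with a median log2 fold change of -0.31. Over all genes, which include non-coding ones that were less often called lower, 4.12% were lower and 1.88% higher. The next highest share of lower genes was 10.9%, on chromosome 22. The median was -0.58 and -0.79 in the pairs of 6CD2m, -0.14 and -0.33 in those of 6CD1m and 0.12 and -0.09 in those of 8CDm. In all, 11 genes (5.76%) were lower without the 6CD2m libraries, beside 1.59% of all genes. With the GC curve taken out 41 (21.5%) were lower, beside 3.4% of all genes. SERPINB2 and SIGLEC15 lie on this chromosome, and so does SLC14A1, which was higher.

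Genes that passed the threshold in the contrast but changed sign show what 1 line can do to a mean over lines. LINC00355 had 0 counts in the 8CDm libraries, 1.42 to 2.06 CPM in 6CD2m, and 4.46 to 5.44 CPM in 6CD1m, which overlapped WT cells at 3.7 to 5.87 CPM. UTY, a histone demethylase gene of the Y chromosome, also had 0 counts in the 8CDm libraries, at least 167-fold lower than in WT cells on PCI-34051, while 6CD1m and 6CD2m, at 33.8 to 39.7 CPM, were above WT cells at 25.6 to 30.5 CPM. All 8 Y-linked protein-coding genes with a median of at least 5 CPM in WT cells, UTY included, were low in 8CDm, at 0 to 3.58 CPM beside 4.88 to 309.6 CPM in the other groups. ADGRL4, an adhesion receptor of endothelial cells, had 1 count in all in 8CDm and was at 11.5 to 60.9 CPM in the other groups. In the other direction, NFASC, a neuronal adhesion molecule, was at 12.4 to 24.5 CPM in 6CD2m and 8CDm but at 0.279 to 0.562 CPM in 6CD1m and 0.267 to 2.37 CPM in WT cells. MYCT1 rose in the same lines, with log2 fold changes of 3.59 to 5.27, and ARHGAP4 in 6CD1m and 6CD2m, with 3.25 to 5.6. The endothelial marker CDH5 was among the genes called higher, with all endothelial markers together at 0.258 to 3.49 CPM. CDH5 had 0 counts in WT cells on PCI-34051, so its fold change against that group shows only the direction.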

How the data were processed

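Total RNA of 15 HT1080 libraries in 5 groups of 3 was depleted of rRNA and sequenced. The study calls its samples biological replicates, while the labels do not name separate cultures, and p-values measure the spread between these samples. The authors deposited expected counts per gene, unscaled, and per the labels Trimmomatic 0.39, Bowtie2 2.4.5, RSEM 1.3.3 and DESeq2 1.38.2 were used with the build GRCh38. Expected counts divide reads shared by similar genes, 21.8% of the values above 0 were not whole, and all were rounded. Strand use in counting is not given in the sources used here.

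Genes that passed edgeR's filterByExpr were scaled by TMM and tested by the quasi-likelihood test of edgeR 4.0.16 in R 4.3.3, in 1 model of all 15 libraries without a replicate block, with Benjamini-Hochberg adjustment over all 19535 tested genes and a threshold of 0.001. The same model gave the 6 pairs of groups and a test for any difference among the 3 mutant lines. Depth (10932455 to 19983710 counts) and 3 replicates limit the precision, with the floor for a gene at 0 set at 3 counts per library. The code was tested on simulated data.

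The text names up to 12 genes per direction that passed in all 6 pairs without overlap, ordered by their smallest pair difference, up to 4 called members per list, and 3 genes per direction that changed sign. Some called members are not reported here. Any other gene was picked with its values in view. The comparison, its members and the 38 gene lists were chosen with earlier results of these data known. Gene positions are from GENCODE 29, in which 57055 of 60675 identifiers were found. Promoters are from RefSeq (GRCh38.p14). Alternatives were other scalings, filters, thresholds, a GC correction, thinning to equal depth, DESeq2 1.42.0, a replicate block, and leaving out single libraries or groups.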

Additional observations from a re-analysis of the deposited data

Results flagged for a closer look

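Of the 24 genes past the threshold in all 6 pairs, 19 also differed among the mutant lines by a quasi-likelihood F test of edgeR with 2 degrees of freedom. Their adjusted p among lines was 5.9e-06 for SLC14A1, 7.2e-05 for OR7E12P, 3.3e-06 for CDH4, 1.3e-05 for TSSC2, 2.2e-07 for TAGLN, 8.4e-06 for AL133493.2, 8.5e-09 for DNAH6, 4.1e-05 for CD33 and 7.7e-07 for VMP1 among the higher genes. Among the lower genes it was 0.00085 for SERPINB2, 6.4e-08 for IL1B, 0.00095 for ADAMTS18, 0.00028 for CDR1-AS, 1.5e-09 for ACTL8, 1.6e-07 for ACOT2, 1.1e-06 for ALDH1A3, 3.1e-09 for FAM167A, 3.6e-07 for RP11-575F12.3 and 4.3e-06 for HPCAL1. The order of the lines was not shared. SLC14A1 was highest in 6CD1m, CDH4, TAGLN, DNAH6 and VMP1 were highest in 6CD2m, and OR7E12P and CD33 were highest in 8CDm. IL1B and ACTL8 were lowest in 6CD2m, ALDH1A3 in 8CDm, and SERPINB2 and ACOT2 in 6CD1m.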

How the results depend on the processing

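Counts are given as genes differing in the contrast (2023), with 1 sign (1172), in all 6 pairs (24) and among lines (3953). At a false discovery rate of 0.05 they were 5939, 2546, 174 and 10252, and at a log2 fold change of at least 1 the first 3 were 607, 386 and 14. DESeq2 gave 3276 in the contrast, 71 in all pairs and 6605 among lines, and no filter on low counts gave 43 in all pairs. Without all libraries of 6CD1m the counts were 3986, 3537, 550 and 2172. Without 6CD2m the contrast gave 651, 1 sign 482 and lines 1568, and without 8CDm the contrast gave 986, all pairs 37 and lines 1766. Without WT cells on PCI-34051 the contrast gave 1302 and all pairs 46, and without WT cells on Tubastatin A 1085 and 70. Leaving out groups changes the number of pairs and samples. Leaving out 1 library at a time gave 1364 (without WT Tubastatin A replicate 3) to 2302 (6CD1m replicate 1) in the contrast, 789 to 1301 with 1 sign for the same libraries, 14 (6CD1m replicate 2) to 24 in all pairs, and 2724 (6CD2m replicate 3) to 4733 (WT PCI-34051 replicate 1) among lines. All pairs gave 15 without WT PCI-34051 replicate 3 or WT Tubastatin A replicate 1.

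Same-numbered mutant and WT libraries did not deviate together, with correlations of -0.738 to -0.0509 in 18 pairs, 0 above 0.1, so the numbers were not taken to pair them. With the replicate block the counts were 1395, 838, 15 and 2774, and the count in all pairs alone moved by over 1.5 times. Direction reversed for UTY without 8CDm (0.46), and for HSPA1A (-0.01) and EP300 (0.01) without 6CD2m. In each case the line left out was the one that differed most from WT cells. UTY had 0 counts in 8CDm, and the pairs of 6CD2m were at 0.88 and 0.88 for HSPA1A and -1.08 and -0.89 for EP300. Why those lines differed was not tested. Libraries of 6CD1m were the shallowest, and thinning all libraries to the smallest total gave 1517, 861, 18 and 3536.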
